A study of Danio rerio with 24 samples.

Results

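The genes described here are the zebrafish cytochromes P450 (*cyp*), UDP-glucuronosyltransferases (*ugt*), sulfotransferases (*sult*) and glutathione S-transferases (*gst*), the enzymes that oxidize and then conjugate drugs, hormones, sterols and bile acids. Every gene of the deposited tables was taken whose symbol starts with one of these names followed by a family number, or for *gst* by a class letter. This gave 149 of 26878 genes, with 85 *cyp*, 29 *ugt*, 18 *gst* and 17 *sult* genes under 140 symbols. Gene symbols written in capitals fell outside the rule, which left out 3 genes. The choice was by symbol alone, so not every member need be such an enzyme, and *ugt1b6p* is annotated as a processed pseudogene. RNA-Seq was carried out on whole larvae in 24 libraries, 4 for each of 6 groups, with pooled larvae in every library. Larvae were wild type without any transgene (WT), carried the neuronal driver alone (*huC:gal4:gcry:RFP*, called *elavl3:Gal4* or Gal4 here) or carried the driver and, from *UAS:fynY531F:gcry:GFP*, constitutively active Fyn kinase (called fyn here), each at 3 and at 5 days post-fertilization (dpf). The Gal4 and fyn larvae thus share the driver and its red lens marker. The *elavl3* (*huC*) promoter is active in neurons, so the transgene was aimed at nervous tissue, while most of the enzymes described here are made in liver, gut and other organs of the same larvae.

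Cytochromes P450 insert oxygen into their substrates with electrons from a reductase or from ferredoxin. Families with low numbers act mainly on foreign compounds and fatty acids, and others each carry out a step in the synthesis or breakdown of sterols, bile acids, vitamin D or retinoic acid. The transferases then attach glucuronic acid, sulfate or glutathione, which makes the product soluble and ready for export into bile or urine. In the zebrafish, liver and gut take on these tasks during the first days of larval life, and retinoic acid and vitamin D enzymes are active in embryonic patterning and in ion-transporting tissues before that.

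The total count per library lay between 11386498 and 30549128. Levels are given as counts scaled to the library size (CPM) with factors by the trimmed mean of M values (TMM), as mean ± SD over the 4 libraries of a group. Differences were tested with edgeR's quasi-likelihood test, and genes with an adjusted p under 0.05 over all genes tested are referred to as called. The transgene product *fyna* was at 897 ± 78.3 CPM in fyn larvae at 3 dpf. It was at 208 ± 54.4 CPM in fyn larvae at 5 dpf, against group means of 74.6 to 89.4 CPM in the other groups. Replicate 3 of Gal4 at 5 dpf stood apart from all other libraries. Its median correlation across genes with its own group was 0.872, while that of every other library was at least 0.983, and its TMM factor was 0.598 against 0.936 to 1.09. Fold changes and counts against Gal4 larvae at 5 dpf are therefore given with and without this library where edgeR was used on single comparisons, and WT serves as the main control at that age. RNA of whole larvae cannot tell apart fewer cells of a type and less RNA per cell.

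Of the 149 genes, 122 passed the filter on low counts in at least 1 of 11 comparisons and 105 in all. The 27 that passed in none were hardly read at all, with no group mean above 1.02 CPM. They include the steroidogenic genes *cyp11a1*, *cyp21a2* and *cyp19a1a* (the ovarian aromatase), whose group means did not exceed 0.161, 0.0358 and 0.116 CPM, and *cyp1b1*, at no more than 0.0492 CPM.

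Together the 149 genes gave 1860 ± 33.8 CPM in WT larvae at 3 dpf and 1846 ± 38.6 CPM in Gal4 larvae, but 1421 ± 104 CPM in fyn larvae. At 5 dpf the sum was 4247 ± 164 CPM in WT and 2494 ± 195 CPM in fyn larvae. In Gal4 larvae at 5 dpf the sum ranged from 4070 to 7260 CPM, the highest value being that of replicate 3. That library held 60723 counts of these genes in a total of 13985939, close to replicate 1 with 59581 in 14578300. Its high sum thus comes largely from its TMM factor of 0.598. The highest fyn libraries of the younger and older larvae, with 1566 and 2768 CPM, lay below the lowest control library of their age. The P450 genes made up most of this difference, with 2429 ± 128 CPM in WT and 1300 ± 137 CPM in fyn larvae at 5 dpf. The glucuronosyltransferases summed to 472 ± 33.7 and 270 ± 19.8 CPM, the glutathione S-transferases to 873 ± 41.9 and 564 ± 46.8 CPM, and the sulfotransferases to 473 ± 25.3 and 359 ± 9.89 CPM in the same groups. Much of the P450 difference at 5 dpf came from the single gene *cyp3a65*, and much of the glucuronosyltransferase difference from *ugt1ab*, with levels given below. The median log2 fold change of the members tested between fyn and WT larvae at that age was -0.29.

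**Figure D1:**
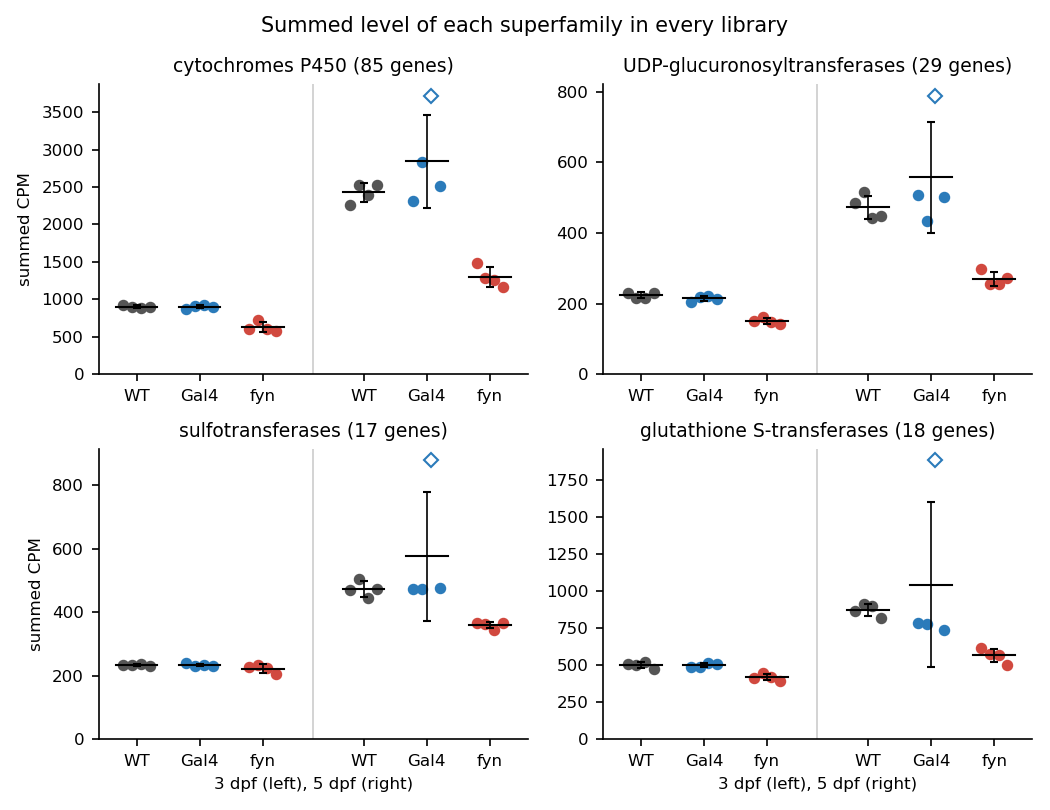
Summed level of each superfamily in CPM (linear axis) in every library, with WT, Gal4 and fyn larvae at 3 dpf on the left and at 5 dpf on the right of each panel. Points are libraries, lines group means, bars SD over 4 libraries, and the open diamond is replicate 3 of Gal4 at 5 dpf. In all 4 panels the fyn libraries at 5 dpf lie below every WT library of that age.

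Per length, the level order of the genes changed with age. In CPM per kilobase of gene length (RPKM), *gstp1*, a pi-class glutathione S-transferase, led the WT larvae at 3 dpf with 263 RPKM, followed by *gstm.1* with 36.6 RPKM and *cyp1a* with 33.03 RPKM. In WT larvae at 5 dpf, *cyp3a65*, whose human counterparts are the main drug-metabolizing P450s of liver and gut, led with 486 RPKM. It was followed by *gstp1* with 281, *gstr* with 99.2, *sult6b1* with 97.4, *gsto2* with 93.2 and *cyp7a1* with 57.9 RPKM. In fyn larvae at 5 dpf *gstp1* was first again, with 219 RPKM, ahead of *cyp3a65* with 98.8 and *sult6b1* with 54.5 RPKM.

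To show the normal course of these genes, WT larvae at 5 dpf were compared with WT larvae at 3 dpf. Of 117 genes tested, 72 were called higher and 24 lower at 5 dpf, where 29.3% of all genes tested were called higher and 28.7% lower (58% in either direction). The median log2 fold change of the tested members was 0.75, against a median near 0 over all genes. All 5 *cyp3* genes rose, as did 22 of 32 *cyp2* genes, 11 of 15 *gst*, 9 of 13 *sult* and 13 of 25 *ugt* genes.

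*cyp3a65* and *cyp7a1* were among the genes that rose. *cyp3a65* (chromosome 1, 59338175 to 59348118, GRCz11 as in the deposited tables) stood at 8.58, 8.96, 9.96 and 8.35 CPM in the 4 WT libraries at 3 dpf. At 5 dpf it reached 888, 999.6, 978 and 1060 CPM, a log2 fold change of 6.77 ± 0.08 (SE; adjusted p = 2.5e-15). *cyp7a1* (chromosome 2, 22150134 to 22152797), which encodes the rate-limiting enzyme of bile acid synthesis, was at 7.44, 5.08, 6.38 and 6.01 CPM in the younger and at 104, 123, 112 and 122 CPM in the older WT libraries (4.2 ± 0.10; adjusted p = 1.1e-12). For both genes every library at 5 dpf was far above every library at 3 dpf. The sulfotransferase gene *sult1st2* rose by 7.39 ± 0.24 on the log2 scale (adjusted p = 3.0e-11) from a level of 0.234 ± 0.150 CPM, and *cyp2n13* by 6.11 ± 0.16 (adjusted p = 2.7e-12).

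Among the genes that fell with age were enzymes of signalling molecules and 5 of the *cyp2aa* genes. All 3 *cyp26* genes, whose products break down retinoic acid, were lower at 5 dpf, with *cyp26a1* at -2.13 ± 0.07 (adjusted p = 4.7e-11). So were *cyp24a1*, which inactivates vitamin D (-1.47 ± 0.16; adjusted p = 3.4e-06), and *cyp27b1*, which activates it (-2.19 ± 0.19; adjusted p = 6.0e-07). *cyp1a*, the classical target of the aryl hydrocarbon receptor, changed by -1.57 ± 0.07 (adjusted p = 8.9e-10).

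At 3 dpf, fyn larvae were compared with both controls. Only the comparison with Gal4 larvae holds the driver constant. Differences from WT larvae, at either age, can also stem from the driver and its lens marker. Against Gal4 larvae, 1 of 106 genes tested was called higher and 38 lower, where 8.88% of all genes tested were called higher and 9.73% lower (18.6% in either direction). Against WT larvae, 5 of 108 were called higher and 50 lower, with 12.7% and 14.8% of all genes tested (27.5% in either direction). The median log2 fold change of the members was -0.35 against Gal4 and -0.41 against WT. Both comparisons use the same fyn libraries. The genes called lower against Gal4 were 25 of 59 *cyp*, 7 of 21 *ugt*, 4 of 11 *sult* and 2 of 15 *gst* genes.

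Among the genes called lower were enzymes of retinoic acid, vitamin D and the aryl hydrocarbon response. *cyp26a1* (chromosome 12, 8954761 to 8958353), itself a target gene of retinoic acid, was at 53.6, 57.1, 50.1 and 57.2 CPM in WT, at 65.7, 61.9, 56.3 and 57.3 CPM in Gal4 and at 18.6, 17.2, 15.6 and 16.5 CPM in fyn larvae at 3 dpf. The fyn libraries lay far below both controls, with log2 fold changes of -1.69 ± 0.08 against WT (adjusted p = 1.3e-08) and -1.81 ± 0.08 against Gal4 (adjusted p = 2.0e-08). *cyp26b1* fell by 0.50 ± 0.06 and 0.61 ± 0.06 on the log2 scale against WT and Gal4 (adjusted p = 6.0e-05 and 3.5e-05). *cyp26c1* fell by 0.59 ± 0.10 and 0.56 ± 0.10 (adjusted p = 0.00137 and 0.00265), calls that were lost when all 6 groups were fitted together (adjusted p = 0.059 and 0.082).

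*cyp24a1* (chromosome 6, 55852274 to 55864687) was at 49.6, 50.0, 66.0 and 58.9 CPM in WT, at 41.8, 56.5, 47.5 and 50.4 CPM in Gal4 and at 15.6, 18.8, 11.8 and 10.4 CPM in fyn larvae. No fyn library came near a control library, and the log2 fold changes were -2.01 ± 0.15 against WT (adjusted p = 1.9e-06) and -1.79 ± 0.15 against Gal4 (adjusted p = 9.8e-06). *cyp27b1* was lower by 1.21 ± 0.16 against WT and by 1.01 ± 0.13 against Gal4 on the log2 scale (adjusted p = 1.6e-04 and 2.9e-04), the latter no longer called with all 6 groups in one fit. *cyp2r1*, a vitamin D hydroxylase of the liver in mammals, was at 6.35 ± 1.18 CPM in fyn, 9.34 ± 2.52 CPM in WT and 10.1 ± 1.91 CPM in Gal4 larvae, groups that overlapped. It was called lower against both (-0.56 ± 0.20, adjusted p = 0.049 and -0.63 ± 0.17, adjusted p = 0.023), but no longer without any 1 of 6 libraries against WT (replicates 1, 2 and 3 of WT and 2, 3 and 4 of fyn; -0.55 to -0.42) or any 1 of 4 against Gal4 (replicates 3 and 4 of each; -0.62 to -0.51). Its annotated span overlaps *calca* on the opposite strand, whose reads could be counted with it if strand was not used.

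*cyp1a* (chromosome 18, 5588068 to 5598958) was at 91.6, 80.9, 94.4 and 78.4 CPM in WT, at 56.3, 74.2, 77.6 and 69.5 CPM in Gal4 and at 14.2, 21.6, 16.4 and 21.5 CPM in fyn larvae at 3 dpf. Every fyn library was far below every control library (log2 fold change -2.24 ± 0.12, adjusted p = 8.2e-08 against WT and -1.89 ± 0.13, adjusted p = 1.8e-06 against Gal4). Its relatives took other values. *cyp1c1* was at 20.9 ± 1.94 CPM in WT and 20.1 ± 2.30 CPM in fyn larvae (-0.06 ± 0.10; adjusted p = 0.699), and *cyp1c2* was higher than in WT (0.80 ± 0.19; adjusted p = 0.00844), with no call against Gal4 (0.43 ± 0.18; adjusted p = 0.109). *cyp1d1* was also called higher than in WT (0.34 ± 0.09; adjusted p = 0.0111), though not when all 6 groups were fitted together.

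**Figure D2:**
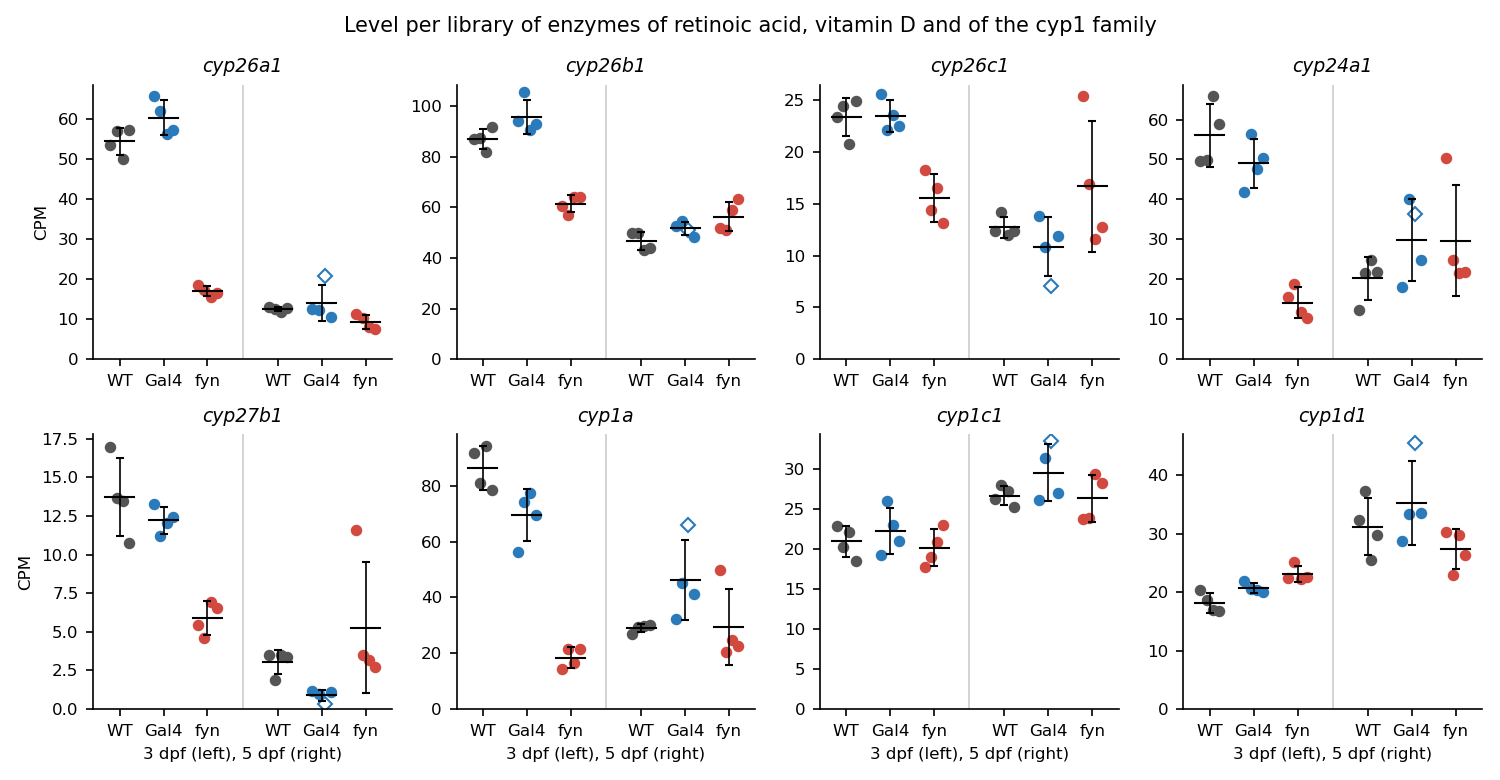
Level in CPM (linear axes starting at 0) of 8 P450 genes of retinoic acid, vitamin D and the *cyp1* family, in WT, Gal4 and fyn larvae at 3 dpf (left of the grey line) and 5 dpf (right). Points are libraries, lines means, bars SD over 4 libraries, and the open diamond is replicate 3 of Gal4 at 5 dpf. At 3 dpf the fyn libraries of *cyp26a1*, *cyp24a1* and *cyp1a* lie far below both controls, and at 5 dpf the groups of *cyp24a1* and *cyp1a* overlap.

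The bile acid genes *cyp7a1* and *cyp8b1* and the xenobiotic gene *cyp3a65* were lower as well at 3 dpf, while the bile acid gene *cyp7b1* was not called against WT (-0.04 ± 0.10; adjusted p = 0.801). *cyp7a1* was at 2.64, 4.65, 5.72 and 5.72 CPM in Gal4 and at 1.43, 1.17, 1.53 and 0.959 CPM in fyn larvae, with log2 fold changes of -1.83 ± 0.27 against Gal4 (adjusted p = 5.6e-04) and -2.27 ± 0.20 against WT (adjusted p = 6.0e-06). *cyp8b1*, the sterol hydroxylase that sets the type of bile acid made, fell by 1.34 ± 0.17 and 1.66 ± 0.16 on the log2 scale (adjusted p = 2.3e-04 and 1.3e-05). *cyp3a65* was lower by 1.64 ± 0.21 and 1.79 ± 0.20 (adjusted p = 2.5e-04 and 4.6e-05). None of *cyp7a1*, *cyp8b1* and *cyp3a65* had a fyn library that overlapped a control library. Among the transferases, *ugt2b5* fell by 1.74 ± 0.19 against Gal4 and 2.24 ± 0.18 against WT (adjusted p = 6.5e-05 and 2.2e-06), and *ugt1ab*, of the family that conjugates bilirubin and phenols in mammals, by 0.84 ± 0.13 and 1.13 ± 0.11 (adjusted p = 9.1e-04 and 1.9e-05).

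At 5 dpf, fyn larvae differed from WT larvae in 69 of 121 genes tested, with 15 called higher and 54 lower, where 14.5% of all genes tested were called higher and 14.3% lower (28.8% in either direction). The median log2 fold change of the members was -0.29, against 0 over all genes. Called lower were 27 of 67 *cyp*, 11 of 25 *ugt*, 9 of 15 *gst* and 7 of 14 *sult* genes, and called higher were 8, 3, 1 and 3 genes of these superfamilies. Of the 50 members called lower at 3 dpf against WT, 33 (66%) were called lower again at 5 dpf, where they made up 61.1% of the 54, and these 2 comparisons share no library. Over all genes, 1119 were called lower at both ages, which was 39.1% of those called lower at 3 dpf and 39.6% of those at 5 dpf. Shares called lower at 5 dpf were themselves unlike, at 44.6% of the members tested and 14.3% of all genes. These overlaps of members and of all genes can therefore not be compared directly. Only 1 member was called higher at both ages, 20% of those called higher at 3 dpf and 6.67% of those at 5 dpf. Over all genes these were 1028, with 41.8% and 35.8%.

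Against Gal4 larvae at 5 dpf, 7 of 119 genes were called higher and 27 lower, where 2% of all genes tested were called higher and 2.6% lower (4.6% in either direction). Without replicate 3 of Gal4 the counts were 16 higher and 49 lower of 121, with 11.7% and 11% of all genes tested (22.7% in either direction). The median log2 fold change of the members was -0.46 with and -0.30 without this library. Leaving out another single library gave between 20 and 26 calls. Shares of all genes are not given for these fits, so the counts show only how far the number of calls moved. DESeq2 called 56 members and one fit of all 6 groups 76, where 9.44% and 24.4% of all genes tested were called. With the replicate number as a block, 3 members were called higher and 10 lower, where 0.901% of all genes tested were called.

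**Figure D3:**
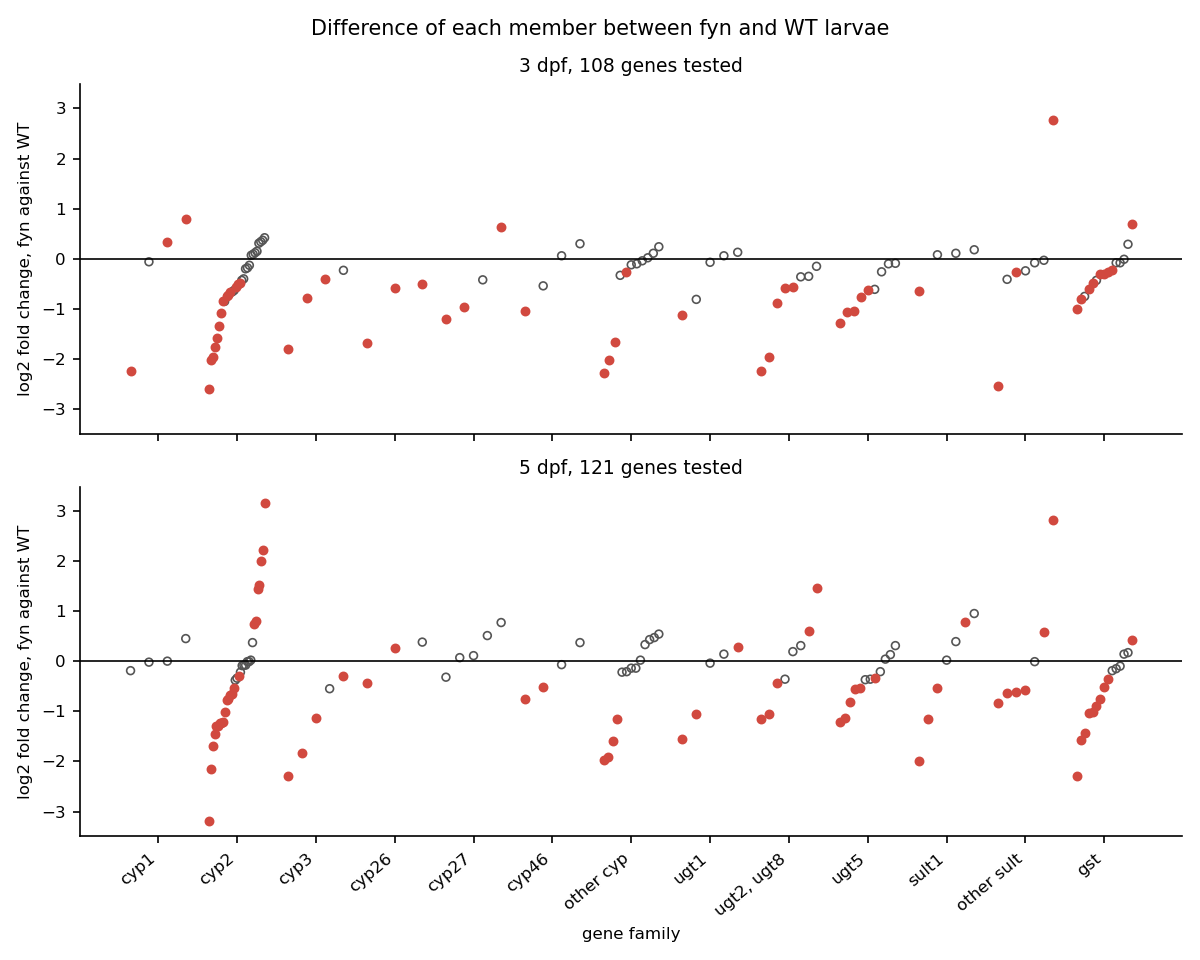
Log2 fold change between fyn and WT larvae (y axis) of every tested member, grouped by family along the x axis and ordered by size within a family, at 3 dpf (top, 108 genes) and 5 dpf (bottom, 121 genes). Filled red points were called at an adjusted p under 0.05 and open points were not. Of the members, 84 lie below 0 and 24 above it at 3 dpf, and 80 below and 41 above at 5 dpf. The *cyp2* family at 5 dpf extends from -3.18 to 3.16.

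*cyp7a1* and *cyp8b1* of bile acid synthesis were also called lower in fyn larvae at 5 dpf, although both had risen since 3 dpf (4.51 ± 0.32 and 1.84 ± 0.16 on the log2 scale; adjusted p = 2.6e-06 and 1.0e-05). *cyp7a1* was at 104, 123, 112 and 122 CPM in WT, at 150, 131, 313 and 134 CPM in Gal4 and at 47.3, 20.04, 23.0 and 27.9 CPM in fyn larvae. Every fyn library was below all libraries of either control, and the third Gal4 library was the highest. The log2 fold change was -1.97 ± 0.22 against WT (adjusted p = 1.4e-04), and against Gal4 it was -2.61 ± 0.38 with replicate 3 and -2.23 ± 0.24 without it, called both times. *cyp8b1* was at 71.5, 80.1, 68.2 and 68.0 CPM in WT and at 23.6, 20.5, 26.0 and 24.6 CPM in fyn larvae (-1.60 ± 0.09; adjusted p = 2.4e-06), with -2.23 ± 0.27 and -1.88 ± 0.09 against Gal4 with and without replicate 3. Other members with roles in bile acid synthesis in mammals were not called against WT, with -0.22 ± 0.09 for *cyp7b1* (adjusted p = 0.105), 0.43 ± 0.27 for *cyp39a1* (adjusted p = 0.257) and -0.32 to 0.11 for the 3 *cyp27a* genes tested (adjusted p = 0.344 to 0.868). The span of *cyp39a1* (mean 1.213 CPM) overlaps a gene on the opposite strand with a mean of 12.32 CPM. Its count is uncertain if strand was not used.

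*cyp51*, the demethylase of lanosterol in cholesterol synthesis, was at 39.8, 41.8, 32.8 and 32.5 CPM in WT, at 80.1, 67.9, 126 and 63.5 CPM in Gal4 and at 13.5, 19.99, 16.99 and 15.0 CPM in fyn larvae at 5 dpf. The 3 groups did not overlap, with fyn lowest and Gal4 highest. The log2 fold change was -1.16 ± 0.13 against WT (adjusted p = 1.4e-04) and -2.35 ± 0.24 against Gal4 (-2.10 ± 0.13 without replicate 3, called both times). Unlike WT larvae, in which *cyp51* rose with age by 1.09 ± 0.10 on the log2 scale, fyn larvae showed 0.20 ± 0.13 (adjusted p = 0.209), and the difference between the age changes was -0.90 ± 0.17 (adjusted p = 0.00187).

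Of the xenobiotic enzymes, *cyp3a65* was at 253, 171, 227 and 147 CPM in fyn larvae at 5 dpf, compared with 888 to 1060 CPM in WT and 793, 1170, 1371 and 955 CPM in Gal4 larvae. It was thus 4.91 times lower than in WT (log2 fold change -2.30 ± 0.16; adjusted p = 6.6e-06), and -2.41 ± 0.25 and -2.28 ± 0.20 against Gal4 with and without replicate 3. In all, 4 of the 5 *cyp3* genes were called lower than in WT. *cyp2y3* (chromosome 15, 18305 to 20710) showed the lowest log2 fold change of all members at 5 dpf, from 41.3, 46.3, 43.0 and 33.5 CPM in WT to 3.55, 4.73, 5.87 and 3.77 CPM in fyn larvae (-3.18 ± 0.16; adjusted p = 1.6e-06). Its span overlaps that of another gene on the same strand, so that its count is uncertain where reads could be shared.

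In the *cyp2* cluster on chromosome 20 (25515259 to 25615802, 11 members), *cyp2n13* was at 84.8 ± 10.8 CPM in WT and 34.8 ± 7.17 CPM in fyn larvae (-1.29 ± 0.15; adjusted p = 1.5e-04). *cyp2p8* of the same cluster was at 54.2 ± 7.91 and 19.8 ± 2.70 CPM (-1.46 ± 0.12; adjusted p = 2.4e-05), and its span overlaps that of *cyp2p7* on the same strand. *cyp2ad2* was at 59.4 ± 7.46 CPM in WT and 35.4 ± 12.4 CPM in fyn larvae, groups that overlapped (-0.75 ± 0.20; adjusted p = 0.0188), and was not called without replicate 4 of WT (-0.72). Its span overlaps *cyp2v1* on the opposite strand, a gene of similar level, so that its count is uncertain if strand was not used.

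The first and the last gene of another cluster, that of 8 *cyp2k* genes on chromosome 3 (12710350 to 12826387), moved in opposite directions. *cyp2k18* was at 39.4, 46.9, 41.0 and 32.5 CPM in WT and at 11.1, 7.57, 10.2 and 7.46 CPM in fyn larvae at 5 dpf (-2.15 ± 0.15; adjusted p = 7.8e-06). *cyp2k6* (ENSDARG00000098995) was at 0.789, 0.350, 0.823 and 0.299 CPM in WT and at 6.01, 3.82, 5.11 and 5.37 CPM in fyn larvae (3.16 ± 0.31; adjusted p = 5.9e-05). Against Gal4 larvae, which had 2.80, 1.33, 0.478 and 1.72 CPM, *cyp2k6* showed 1.65 ± 0.43 with replicate 3 (adjusted p = 0.0666) and 1.4 ± 0.28 without it, then called, as it was without replicate 1 of Gal4 (2.04), with DESeq2 and in one fit of all groups. Another gene of the symbol *cyp2k6* (ENSDARG00000009874) did not pass the filter.

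**Figure D4:**
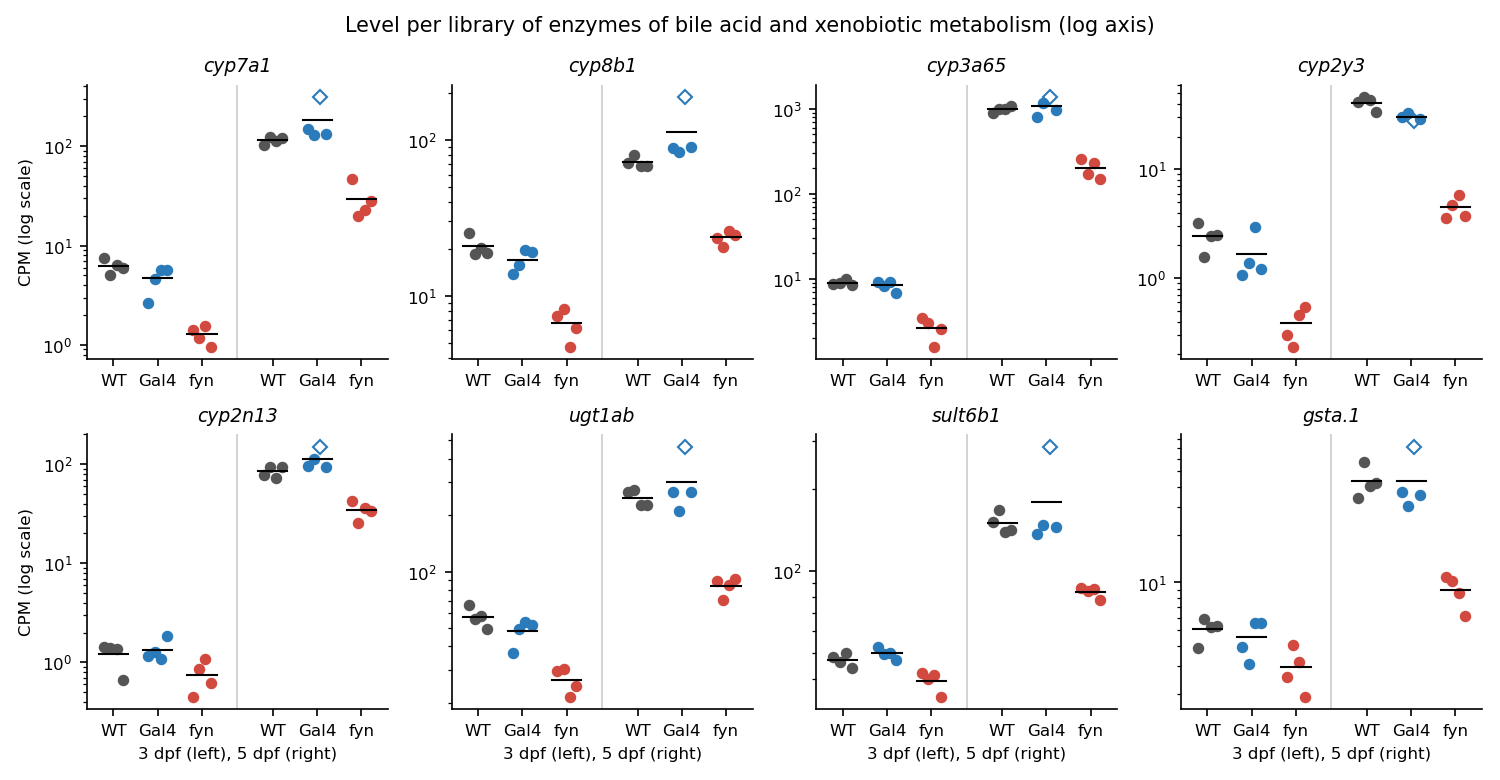
Level in CPM (log axes) of 8 enzyme genes of bile acid and xenobiotic metabolism, in WT, Gal4 and fyn larvae at 3 dpf (left of the grey line) and 5 dpf (right). Points are libraries, lines means over 4 libraries, and the open diamond is replicate 3 of Gal4 at 5 dpf. Each gene is higher at 5 than at 3 dpf in all groups, and each fyn library at 5 dpf lies below every control library of that age.

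*ugt1ab* was among the conjugating enzymes called lower in fyn larvae at 5 dpf. It was at 265, 272, 226 and 225 CPM in WT, at 265, 211, 462 and 267 CPM in Gal4 and at 89.4, 70.9, 84.4 and 91.0 CPM in fyn larvae. No fyn library reached a control library (-1.56 ± 0.10; adjusted p = 4.7e-06 against WT; -1.83 ± 0.24 and -1.56 ± 0.11 against Gal4 with and without replicate 3). *gsta.1* (ENSDARG00000090228), an alpha-class glutathione S-transferase, was at 33.8, 57.6, 40.5 and 42.1 CPM in WT and at 10.8, 10.2, 8.57 and 6.14 CPM in fyn larvae (-2.29 ± 0.19; adjusted p = 2.4e-05). Its span (mean 18.05 CPM) overlaps a gene on the opposite strand with a mean of 8.23 CPM, so that its count is uncertain if strand was not used.

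All 3 *gsta*, both *gsto* and both *gstp* genes were called lower than in WT at 5 dpf. Of all 15 *gst* genes tested, 9 were called lower and 1 higher, where 14.3% and 14.5% of all genes tested were called. The 5 not called included *gstk1* (-0.19 ± 0.09) and *gstm.1* (-0.10 ± 0.06). *gstr*, of a class found in fish, was at 220 ± 10.7 CPM in WT and 108 ± 16.4 CPM in fyn larvae (-1.03 ± 0.10; adjusted p = 6.9e-05). *gsto2*, whose mammalian counterpart regenerates ascorbate, was at 101 ± 9.88 and 50.4 ± 3.77 CPM (-1.01 ± 0.08; adjusted p = 2.4e-05). *gstp1* was at 251 ± 12.6 and 195 ± 8.89 CPM (-0.36 ± 0.06; adjusted p = 0.00242) and lost its call with all 6 groups in one fit (adjusted p = 0.26).

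The mu-class gene *gstm.3* differed from these, with 22.9, 21.8, 22.3 and 19.4 CPM in WT and 23.7, 34.96, 30.4 and 26.6 CPM in fyn larvae at 5 dpf. Its log2 fold change was 0.43 ± 0.12 (adjusted p = 0.0193), and it was not called without replicate 4 of WT (0.38) or with all 6 groups in one fit (0.42). The WT and fyn libraries did not overlap, but lay close together.

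Within the sulfotransferase cluster on chromosome 8 (46447061 to 46581448, 5 members), which acts on phenols, thyroid hormones and steroids, neighbouring genes went in different directions. *sult1st2* was at 36.0, 50.8, 35.7 and 39.3 CPM in WT and at 14.2, 8.71, 8.64 and 9.28 CPM in fyn larvae at 5 dpf (-2.0 ± 0.17; adjusted p = 3.0e-05), and *sult1st3* fell by 1.16 ± 0.13 on the log2 scale (adjusted p = 1.3e-04). *sult1st1* was higher, at 61.4, 63.9, 51.9 and 68.4 CPM in fyn against 37.1, 38.5, 34.0 and 33.9 CPM in WT larvae (0.78 ± 0.09; adjusted p = 1.9e-04). Against Gal4 larvae *sult1st1* was not called with replicate 3 (0.49 ± 0.15; adjusted p = 0.109) and was called without it (0.59 ± 0.11), as it was with DESeq2, with library totals alone and in one fit of all groups.

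Of the single-gene sulfotransferase families, *sult6b1* was lower in fyn than in WT larvae at 5 dpf, with 83.8 ± 3.74 against 150 ± 13.2 CPM (-0.84 ± 0.07; adjusted p = 3.5e-05). So was *sult4a1*, a sulfotransferase of the brain in mammals, with 48.7 ± 6.76 against 76.1 ± 9.66 CPM (-0.64 ± 0.11; adjusted p = 0.00222).

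*sult5a1* (chromosome 7, 56602521 to 56606752) was the one member called higher in fyn than in WT larvae at both ages. It was at 0.429, 0.988, 1.504 and 1.25 CPM in WT, at 1.98, 3.20, 1.09 and 1.60 CPM in Gal4 and at 10.5, 8.28, 5.27 and 4.66 CPM in fyn larvae at 3 dpf. The lowest fyn library was above every control library, with log2 fold changes of 2.76 ± 0.34 against WT (adjusted p = 9.9e-05) and 1.78 ± 0.32 against Gal4 (adjusted p = 0.00241). At 5 dpf it was at 1.104, 1.75, 1.58 and 1.79 CPM in WT, at 3.28, 2.41, 3.95 and 4.76 CPM in Gal4 and at 10.4, 9.34, 8.29 and 16.0 CPM in fyn larvae, again without overlap. The log2 fold change against WT was 2.81 ± 0.25 (adjusted p = 3.2e-05). Against Gal4 it was 1.63 ± 0.30 (adjusted p = 0.0196) and 1.69 ± 0.29 without replicate 3, and this call was lost without any of 5 other libraries (replicates 1 and 2 of Gal4 and 1, 2 and 4 of fyn), with values of 1.38 to 1.70. *ugt2a6* was also higher in fyn larvae at 5 dpf, at 5.68 ± 1.26 CPM against 2.10 ± 1.16 CPM in WT (1.45 ± 0.32; adjusted p = 0.00764).

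Of the 15 genes higher in fyn than in WT larvae at 5 dpf, 5 came from one stretch of chromosome 23 (42292748 to 42493876), which holds 9 *cyp2aa* genes. At this age 5 of these 9 were called higher in fyn than in WT larvae, 1 was called lower and 3 were not called. Of all genes tested, 14.5% were called higher and 14.3% lower. *cyp2aa9* was at 4.26, 4.08, 6.45 and 5.90 CPM in WT, at 3.96, 3.70, 1.91 and 3.67 CPM in Gal4 and at 22.9, 28.4, 22.9 and 21.6 CPM in fyn larvae. *cyp2aa8* was at 26.1, 27.1, 45.3 and 46.2 CPM in WT, at 11.8, 21.0, 14.2 and 15.7 CPM in Gal4 and at 95.2, 142, 95.2 and 81.4 CPM in fyn larvae. For both genes the fyn libraries were all higher than those of either control. The log2 fold changes were 2.21 ± 0.16 for *cyp2aa9* (adjusted p = 7.8e-06) and 1.52 ± 0.22 for *cyp2aa8* (adjusted p = 6.9e-04) against WT, and 2.84 ± 0.25 and 2.72 ± 0.24 against Gal4 (2.67 ± 0.14 and 2.67 ± 0.23 without replicate 3).

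*cyp2aa3* and *cyp2aa4* were higher by 1.99 ± 0.22 (adjusted p = 1.1e-04) and 1.44 ± 0.23 (adjusted p = 0.00123) on the log2 scale than in WT. The fifth, *cyp2aa2*, was higher by 0.74 ± 0.18 (adjusted p = 0.011). At 3 dpf none of the *cyp2aa* genes called higher at 5 dpf was called in fyn larvae against WT. The largest difference was 0.42 ± 0.16 for *cyp2aa9* (adjusted p = 0.0712). However, *cyp2aa9* was called without replicate 2 of WT (0.59) and with a replicate block (0.44), and *cyp2aa3* without replicate 4 of fyn (0.42). In WT larvae *cyp2aa9* went with age from 15.9 ± 3.98 to 5.17 ± 1.18 CPM (-1.63 ± 0.19; adjusted p = 8.6e-06), and in fyn larvae from 21.4 ± 3.79 to 23.9 ± 3.03 CPM (0.16 ± 0.13; adjusted p = 0.316). The age change differed between fyn and WT larvae for *cyp2aa3*, *cyp2aa4*, *cyp2aa8* and *cyp2aa9*, by 1.37 to 1.78 on the log2 scale (adjusted p = 1.9e-04 to 0.00985). For *cyp2aa2* no difference was called (0.59 ± 0.25; adjusted p = 0.155), though the lowest adjusted p over the alternative fits was 0.0225.

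*cyp2ae1*, the P450 gene further along the chromosome (42643960 to 42666469), took the opposite course. It was at 6.70, 6.42, 6.10 and 6.57 CPM in WT, at 6.63, 5.76, 6.70 and 6.71 CPM in Gal4 and at 1.44, 2.34, 2.00 and 2.09 CPM in fyn larvae at 5 dpf. The fyn libraries were all below the controls, which were close together (-1.69 ± 0.17 against WT, adjusted p = 6.4e-05; -1.69 ± 0.22 and -1.67 ± 0.19 against Gal4 with and without replicate 3). The annotated span of *cyp2aa8* overlaps those of *cyp2aa4* and other *cyp2aa* genes on the same strand, and the genes are close relatives, so that the counts of single *cyp2aa* genes are uncertain where reads could be shared.

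**Figure D5:**
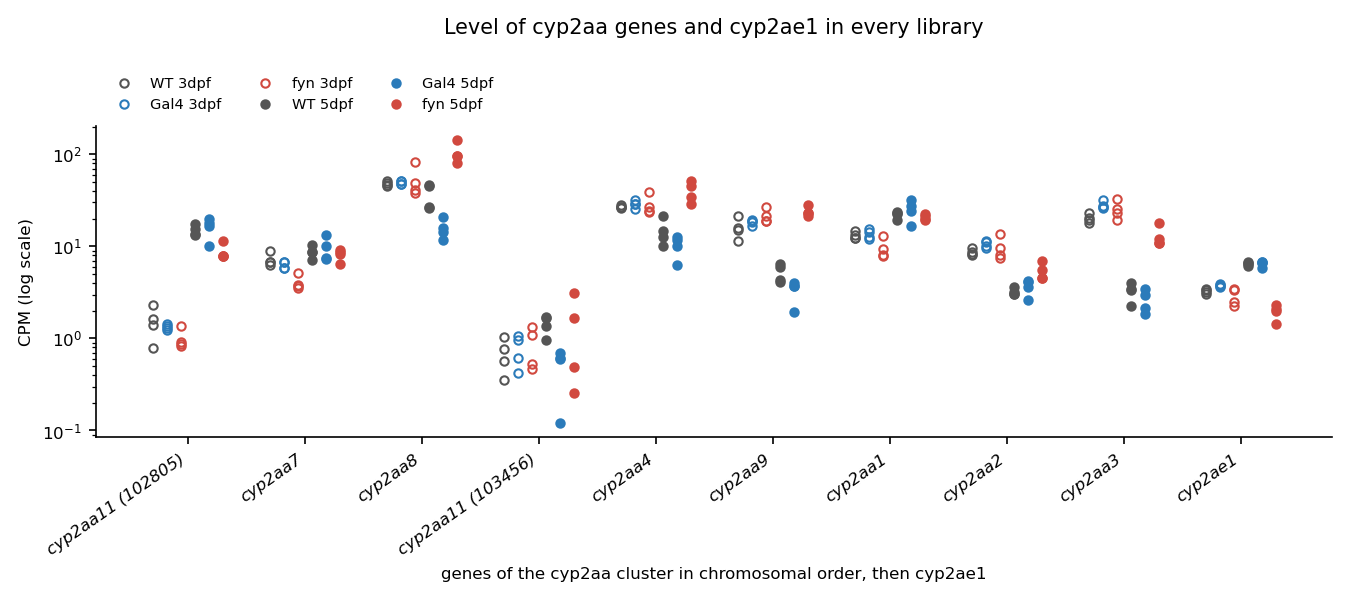
Level in CPM (log axis) in every library of the 9 *cyp2aa* genes in their order on chromosome 23, and of *cyp2ae1*. Open circles are libraries at 3 dpf, filled circles at 5 dpf, and within a gene the groups run WT, Gal4, fyn at 3 dpf and then at 5 dpf. At 5 dpf the fyn libraries of *cyp2aa8*, *cyp2aa4*, *cyp2aa9*, *cyp2aa2* and *cyp2aa3* lie above all controls of that age, and those of *cyp2ae1* below them.

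Of the signalling enzymes that had been low at 3 dpf, *cyp26a1* alone was called lower in fyn than in WT larvae at 5 dpf with all libraries in the fit, and *cyp26b1* was called higher. Against Gal4 larvae, 0 of the 3 *cyp26* genes were called, with or without replicate 3 of Gal4. In one fit of all 6 groups, *cyp26a1* was called lower than in Gal4 larvae (-0.57) and *cyp26c1* higher (0.61). *cyp27b1* was called higher than in Gal4 larvae without overlap, at group means of 2.453 and 0.4153 RPKM. *cyp1a* was at 27.1, 29.6, 29.9 and 30.1 CPM in WT and at 49.8, 20.6, 24.9 and 22.5 CPM in fyn larvae (0.00 ± 0.24; adjusted p = 0.991). Without replicate 1 of fyn it was called lower (-0.37 ± 0.09; adjusted p = 0.0102). *cyp24a1* was at 12.4, 21.7, 24.9 and 21.9 CPM in WT and at 50.4, 24.8, 21.7 and 21.8 CPM in fyn larvae (0.54 ± 0.29; adjusted p = 0.183). The groups overlapped for both genes, and replicate 1 of fyn was the highest each time, as it was for *cyp27b1* with 11.6 CPM against 2.72 to 3.53 CPM in the other fyn libraries. *cyp26a1* remained lower in fyn larvae, at 11.3, 10.4, 8.08 and 7.46 CPM against 12.9, 12.6, 11.7 and 12.7 CPM in WT (-0.43 ± 0.14; adjusted p = 0.0383), a call that was lost without any 1 of 6 libraries (all 4 of WT and replicates 3 and 4 of fyn), with values of -0.46 to -0.33. *cyp26b1* was at 56.4 ± 5.83 against 46.7 ± 3.68 CPM (0.27 ± 0.09; adjusted p = 0.0405), not called without any 1 of 5 libraries (replicates 2, 3 and 4 of WT and 3 and 4 of fyn), with values of 0.21 to 0.30.

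The change from 3 to 5 dpf itself differed between fyn and WT larvae in 36 of 122 members tested, with 22 higher and 14 lower in fyn, where 6.23% of all genes tested were called higher and 5.47% lower (11.7% in either direction). With all 6 groups in one fit 19 members were called, with 4.25% of all genes tested. The 14 *cyp* genes among the 22 included all 3 *cyp26* genes (0.77 to 1.25), *cyp24a1* (2.53 ± 0.37; adjusted p = 2.5e-04), *cyp1a* (2.22 ± 0.30; adjusted p = 1.1e-04) and *cyp27b1* (1.97 ± 0.50; adjusted p = 0.0158). In WT larvae these had fallen with age, while in fyn larvae *cyp24a1* rose (1.07 ± 0.29; adjusted p = 0.00987), *cyp26a1* fell less (-0.87 ± 0.14; adjusted p = 4.3e-04) and *cyp1a* was not called (0.67 ± 0.27; adjusted p = 0.0567). *cyp1a* was called without replicate 2 (0.82) or 4 (0.78) of fyn at 5 dpf, with DESeq2 and in one fit of all groups. All of these fits kept replicate 1 of fyn at 5 dpf, at 49.75 CPM against 20.6 to 24.9 CPM in the others. The highest adjusted p of *cyp1a* over the alternative fits was 0.14.

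Among the 14 lower were *gsto2* (-0.94 ± 0.17; adjusted p = 0.00164), *gstr* (-0.77 ± 0.12; adjusted p = 3.6e-04), *gsta.1* (ENSDARG00000090228; -1.5 ± 0.31; adjusted p = 0.00462) and *sult6b1* (-0.59 ± 0.10; adjusted p = 0.00132). These rose with age in both genotypes, but by less in fyn larvae, such as *gstr* by 1.68 ± 0.05 in WT and 0.91 ± 0.10 in fyn larvae on the log2 scale. The differences of *gstr*, *gsto2* and *sult6b1* were not called with all 6 groups in one fit. For *cyp7a1*, *cyp8b1* and *cyp3a65*, no difference in age change was called (0.28 ± 0.38, 0.05 ± 0.19 and -0.51 ± 0.28; adjusted p = 0.698, 0.908 and 0.271). Against Gal4 larvae, 11 members differed upwards in age change and 4 downwards of 121 (20 and 11 of 123 without replicate 3), where 2.43% and 1.72% of all genes tested were called (4.15% in either direction; 9.4%, 6.48% and 15.9% without replicate 3). DESeq2 called 25 and one fit of all 6 groups 27, where 6.58% and 8.87% of all genes tested were called.

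Within Gal4 larvae, 61 of 115 members were higher and 17 lower at 5 than at 3 dpf, where 15.4% and 10.4% of all genes tested were called (25.7% in either direction). Without replicate 3 at 5 dpf they were 72 and 25 of 116, where 29.6% and 29.4% were called (59% in either direction). In fyn larvae, 73 of 116 were higher and 8 lower, where 27% and 25.3% were called (52.3% in either direction). *cyp3a65* rose by 6.27 ± 0.25 and *cyp2n13* by 5.47 ± 0.24 on the log2 scale in fyn larvae (adjusted p = 1.6e-07 and 2.1e-07).

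The driver alone was compared with WT to separate its effect from that of Fyn. At 3 dpf, 1 of 109 members was called higher in Gal4 larvae and 1 lower, where 1.82% and 2.97% of all genes tested were called (4.79% in either direction). The first was *cyp2aa3*, at 32.0, 26.2, 27.3 and 27.1 CPM in Gal4 and 19.3, 20.4, 17.8 and 22.9 CPM in WT larvae (0.46 ± 0.09; adjusted p = 0.0217), not called without any 1 of 5 libraries (replicates 1 and 4 of Gal4 and 1, 2 and 3 of WT), with values of 0.39 to 0.47. The second was *sult4a1*, whose libraries overlapped between the groups (-0.41 ± 0.10; adjusted p = 0.0413) and which lost its call without any of 6 libraries (replicates 1, 2 and 4 of Gal4 and 1, 2 and 3 of WT), with values of -0.44 to -0.35. DESeq2 and scaling by library totals alone each called 4 members at 3 dpf, with 5.55% and 6.27% of all genes tested, and one fit of all 6 groups called 0, with 0%. Both of the former called *cyp1a* lower in Gal4 larvae (-0.34 and -0.39; adjusted p = 0.0174 and 0.0355). The same held for *ugt2b5* (-0.49 and -0.55; adjusted p = 0.0288 and 0.0332). In edgeR's main fit their adjusted p was 0.0595 and 0.0513, and their Gal4 and WT libraries did not overlap. At 5 dpf, edgeR called 0 of 120 members, where 0.0508% of all genes tested were called (0% higher and 0.0508% lower). In this fit 18 members had an unadjusted p under 0.05, a count without a share of all genes beside it. DESeq2 called 2 higher and 4 lower of 148, where 0.104% and 0.413% of all genes tested were called (0.517% in either direction). Among those higher with DESeq2 was *sult5a1* (1.17; adjusted p = 0.0485), whose Gal4 and WT libraries did not overlap. Without replicate 3 of Gal4, edgeR called 3 higher and 4 lower of 123, where 0.427% and 1.53% were called (1.95% in either direction). Among those higher in this fit were *cyp51* (0.93) and *cyp2k6* (ENSDARG00000098995; 1.76). Among those lower were *cyp2aa8* (-1.14), *cyp27b1* (-1.52) and *cyp2r1* (-2.07). For these genes and *sult5a1* the values of fyn larvae against Gal4 and against WT larvae therefore differ. Whether fyn larvae share the difference seen with the driver alone was not tested.

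Genes that serve these enzymes were read from lists of regulators, electron donors, cofactor supply, other detoxification enzymes and transporters. Of all genes tested between fyn and WT larvae, 14.8% were called lower and 12.7% higher at 3 dpf, and 14.3% and 14.5% at 5 dpf. Of 20 regulators tested, 9 were called lower and 0 higher at 3 dpf, and 5 lower and 1 higher at 5 dpf. The main zebrafish receptor for *cyp1a* inducers, *ahr2*, was at 121 and 122 CPM in WT and fyn larvae at 3 dpf (0.01 ± 0.07; adjusted p = 0.962). Of 6 electron donors tested at 5 dpf, 2 were lower and 1 higher than in WT, and of 8 genes of cofactor supply 1 was lower and 2 higher.

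Of 16 transporters that carry bile acids and conjugates, 10 were called lower and 1 higher in fyn than in WT larvae at 3 dpf, where 14.8% and 12.7% of all genes tested were called, and 6 lower and 3 higher at 5 dpf. The bile salt export pump gene *abcb11a* was at 20.9 CPM in WT and 7.06 CPM in fyn larvae at 5 dpf (-1.58 ± 0.17; adjusted p = 9.71e-05), and *abcc2*, an exporter of conjugates, at 129 and 54.2 CPM (-1.25 ± 0.08; adjusted p = 4.54e-06). Of 18 other detoxification enzymes, 6 were lower and 2 higher at 5 dpf, where 14.3% and 14.5% of all genes tested were called.

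Markers of the organs that make these enzymes did not move in one direction. Of 13 hepatocyte markers tested, 8 were called higher and 1 lower in fyn than in WT larvae at 5 dpf, where 14.5% and 14.3% of all genes tested were called, with a summed level of 6535 to 8618 CPM against 4902 to 6026 CPM. The 1 lower marker was the liver fatty acid binding protein gene *fabp10a*, at 149.5 CPM in fyn and 364 CPM in WT larvae (-1.28 ± 0.20; adjusted p = 0.00124), and none of the 13 was at 0 in either group. Of 10 enterocyte markers, 6 were lower and 2 higher, with sums of 1959 to 2644 CPM in fyn and 2961 to 3465 CPM in WT larvae. The 6 exocrine pancreas markers tested were lower in 5 cases and higher in none, with sums of 2093 to 4685 CPM in fyn and 4927 to 6437 CPM in WT larvae. At 3 dpf the hepatocyte sums overlapped (6150 to 9908 CPM in fyn and 7370 to 8002 CPM in WT), 4 hepatocyte markers were called lower and 2 higher, and 6 enterocyte markers lower and 2 higher, where 14.8% and 12.7% of all genes tested were called. The enterocyte sum at 3 dpf was nevertheless higher in fyn (1650 to 2475 CPM) than in WT larvae (1245 to 1440 CPM), with 1516 to 1823 CPM in Gal4 larvae. The exocrine pancreas sum at 3 dpf was lower, at 18.87 to 37.04 CPM in fyn and 72.17 to 113.9 CPM in WT larvae. Interrenal and pronephros markers summed to 118.7 to 126.8 CPM in fyn and 132.3 to 146.5 CPM in WT larvae at 3 dpf. At 5 dpf these sums were 108.1 to 138.2 CPM and 200.3 to 221.8 CPM. Among other tissues at 5 dpf, the muscle sum was lower in fyn (730.7 to 1252 CPM) than in WT larvae (1370 to 1659 CPM). The sums of radial glia, neuron and lens markers overlapped at that age. Whether the amount of liver, gut, pancreas or another tissue played a part in the enzyme levels was not tested.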

How the data were processed

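Whole zebrafish larvae were sequenced by poly(A) RNA-Seq in 24 libraries, 4 for each of 6 groups, with every library made from pooled larvae. The deposited counts are raw, whole-number read counts per gene, which the authors made with HISAT2 2.0.5, StringTie 1.3.3b and featureCounts 1.5.0-p3 on GRCz11, per the submitters' processing notes. The sources used here do not state the roles of the tools or the use of strand. Counts were taken from 9 tables and merged by gene. The 1201292 entries that occurred in more than 1 table were identical (0 differed), and 13752 entries of genes not listed for a library were taken as 0. Of the other tables, 27 hold the authors' own subsets of these and were not used, and neither were 144 columns of normalized values of single samples or the authors' columns of fold changes and p-values.

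Each comparison was fitted on its own groups with edgeR 4.0.16 (R 4.3.3): genes were filtered with filterByExpr (minimum count 10), scaled by TMM and tested with the quasi-likelihood test, and p-values were adjusted by Benjamini-Hochberg over all genes tested. The difference in age change was the interaction of genotype and age. The script was tested on simulated data. P-values measure the spread between pools of larvae. Levels between genes were compared per gene length as deposited, as RPKM. Library totals of 11386498 to 30549128 limit the precision of genes under about 1 CPM.

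Alternatives were DESeq2 1.42.0, its size factors, library totals alone, no filter, all 6 groups in one fit, a replicate block and each library left out. Named genes were, for each comparison, up to 5 called members in each direction, taken by the size of the log2 fold change where the groups did not overlap and the mean log2 CPM was 1 or more, the member with the highest mean CPM of each family, and 49 symbols chosen by role (46 matched), together 79 members, of which 39 are described in full. Members and lists were chosen with earlier results of these data known.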

Additional observations from a re-analysis of the deposited data

Results flagged for a closer look

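Levels of 39 genes were searched for single libraries that stood far from the other 3 of their group, by Dixon's criterion, in 229 sets of 4 values. Chance marks about 1 in 20 such sets. Of the 26 that were marked, 11 were replicate 3 of Gal4 at 5 dpf. In CPM, this library was at 313.1 for *cyp7a1* (others 131 to 150), 188.7 for *cyp8b1* (83.7 to 89.6), 89.31 for *cyp2p8* (63.3 to 65.4), 71.49 for *sult1st2* (41.3 to 44.7), 55.23 for *sult1st3* (19.7 to 23.4) and 285.7 for *sult6b1* (137 to 147). It was also the highest for *gstp1* at 580.0 (209 to 249), *gsta.1* (ENSDARG00000090228) at 71.25 (30.1 to 36.9), *gsto2* at 250.2 (80.7 to 85.6) and *gstm.3* at 39.93 (17.01 to 18.02), and the lowest for *cyp2aa9* at 1.913 (3.67 to 3.96). All levels of this library are raised by its TMM factor of 0.598. Scaled by library totals alone, its *cyp2p8* and *sult1st2* would not stand far above the others. Its part in the comparisons with Gal4 is given by the values without it.

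Replicate 1 of fyn at 5 dpf stood above the rest of its group for *cyp1a* at 49.75 CPM (20.6 to 24.9), *cyp24a1* at 50.43 (21.7 to 24.8), *cyp27b1* at 11.59 (2.72 to 3.53) and *sult1st2* at 14.21 (8.64 to 9.28), and replicate 2 for *cyp2aa3* at 17.82 (10.8 to 11.95). In fyn at 3 dpf, *cyp2p8* was at 2.107 in replicate 1 (1.03 to 1.17), and replicate 2 had *cyp1d1* at 25.08 (22.2 to 22.6) and *ugt2b5* at 2.735 (1.73 to 1.78). In Gal4 at 3 dpf, *cyp2y3* was at 2.945 in replicate 3 (1.07 to 1.39), *cyp1c2* at 5.102 in replicate 2 (3.87 to 3.97) and *ugt2a6* at 1.729 in replicate 1 (2.78 to 2.82), and in Gal4 at 5 dpf *cyp2ae1* was at 5.764 in replicate 2 (6.63 to 6.71). In WT, *cyp2n13* was at 0.6591 in replicate 4 at 3 dpf (1.36 to 1.43), and replicate 2 at 5 dpf had *cyp2p8* at 65.93 (48.4 to 51.3) and *cyp27b1* at 1.867 (3.36 to 3.497).

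The change from 3 to 5 dpf differed between fyn and WT larvae, in edgeR's interaction test, in 36 of 122 members and 11.7% of all genes tested. The 22 of them described here are among 39 genes partly chosen for their calls, so their number shows nothing more. On the log2 scale the difference was 2.53 for *cyp24a1*, 2.22 for *cyp1a*, 1.97 for *cyp27b1*, 1.25 for *cyp26a1*, 0.77 for *cyp26b1* and 0.96 for *cyp26c1*. For the *cyp2aa* genes it was 1.68 (*cyp2aa3*), 1.37 (*cyp2aa4*), 1.39 (*cyp2aa8*) and 1.78 (*cyp2aa9*), and it was 1.79 for *ugt2a6*, 1.08 for *ugt2b5*, 0.73 for *gstm.3* and 0.59 for *sult1st1*. It was below 0 for *sult1st2* (-2.18), *cyp2ae1* (-1.52), *gsta.1* (ENSDARG00000090228; -1.5), *gsto2* (-0.94), *cyp51* (-0.90), *gstr* (-0.77), *sult6b1* (-0.59) and *cyp1d1* (-0.55). Of these, *cyp1d1*, *gstm.3*, *gsto2*, *gstr*, *sult6b1*, *sult1st2* and *ugt2b5* were not called with all 6 groups in one fit.

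Against Gal4 larvae the age change differed in 15 of 121 members and 4.15% of all genes tested. The 14 of them among the 39 genes were also called, in the same direction, without replicate 3 of Gal4 at 5 dpf, whose values stand in parentheses. The difference was 3.52 (3.31) for *cyp27b1*, 2.63 (2.58) for *cyp2aa8*, 2.59 (2.43) for *cyp2aa9*, 2.44 (2.35) for *cyp2aa3*, 2.25 (2.34) for *cyp2r1*, 1.98 (2.03) for *cyp2aa4*, 1.78 (1.88) for *cyp24a1*, 1.78 (1.85) for *ugt2a6*, 1.24 (1.47) for *cyp26a1* and 0.76 (0.75) for *cyp26b1*. It was -2.07 (-1.80) for *cyp51*, -1.67 (-1.35) for *gsta.1* with the identifier ENSDARG00000090228, -1.33 (-1.31) for *cyp2ae1* and -0.77 (-0.76) for *sult4a1*.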

How the results depend on the processing

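Of 231 gene results under 3546 alternatives, 3332 kept direction and call, 214 lost the call and 0 reversed, and 177 of the 231 were called in every alternative. All of these were results called when each comparison was fitted on its own groups. Results that gained a call in an alternative are not in this tally. Examples are *gstr* (-1.05) and *gsto2* (-1.30), called between fyn and Gal4 larvae at 5 dpf with DESeq2. Most calls other than those of single left-out libraries were lost with all 6 groups in one fit (35), the replicate block (16) and scaling by library totals alone (12). The number of members called between fyn and Gal4 larvae at 5 dpf (34) was 56 with DESeq2, 76 in one fit and 20 to 65 with a library left out, the highest being without replicate 3 of Gal4. Between Gal4 and WT larvae at 3 dpf (2), it was 4 with DESeq2, 0 in one fit, 4 with library totals alone and 0 to 6 with a library left out. At 5 dpf (0), it was 6 with DESeq2, 3 in one fit and 0 to 7 with a library left out. For the difference in age change against WT (36) it was 19 in one fit, and against Gal4 (15) it was 25 with DESeq2, 27 in one fit and 12 to 31 with a library left out. For fits with a library left out, shares of all genes are given only for those without replicate 3 of Gal4. These ranges show only how far the counts moved. Library totals alone shifted the median of all genes by -0.15, -0.19 and -0.10 with age in WT, Gal4 and fyn larvae, by 0.14 between fyn and Gal4 and by -0.11 between Gal4 and WT at 5 dpf. With this scaling the members called higher and lower with age were 67 and 26, 55 and 23 and 68 and 10 in these 3 groups, and of all genes tested 22% and 39.4%, 10.5% and 14.1% and 21.8% and 31.2%. The cause of these differences was not tested.

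Equal replicate numbers did not pair the libraries, as the correlation of their deviations lay between -0.21 and 0.19 and was over 0.1 in 6 of 36 pairs. With a replicate block, 13 members were called between fyn and Gal4 larvae at 5 dpf and 1 between Gal4 and WT larvae at 3 dpf, and the other counts of members stayed within 1.5 times. Of all genes tested, 0.901% and 2.04% were called in these 2 fits, against 4.6% and 4.79% without the block.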
